A study of Rattus rattus with 24 samples.

Results

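The genes described here encode enzymes that build the galactolipids and sphingolipids of myelin. The list held 10 genes: Ugt8, Gal3st1, Fa2h, Aspa, Cers2, Sptlc1, Sptlc2, Degs1, Kdsr and Elovl1. They were taken by symbol from the annotation of the array, using probe sets that carried a single gene symbol. Of the 10 genes, 8 had such a probe set, out of 14217 genes on the array with one. Sptlc1 and Sptlc2, which encode subunits of serine palmitoyltransferase, had none in the annotation used and are not analysed here. The 8 measured genes had 11 probe sets, since Ugt8 had 2 and Degs1 had 3. Where a gene had several, the one with the highest mean over all arrays stood for it.

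Primary oligodendrocyte precursor cells (OPCs) were selected with A2B5 microbeads from the cerebral cortex of Sprague Dawley rat pups, expanded with PDGF, and then kept in differentiation medium. The medium held T3, the active thyroid hormone, at 45 nM, or quetiapine, an antipsychotic drug, at 1 μM, or both compounds at the same doses (the combination), or DMSO vehicle as the control. Cultures were harvested after 96 or 48 hours, and each of the 8 groups had 3 arrays, 1 from each of 3 biological replicates. All groups, the control included, had a B27 supplement that itself brings a small amount of T3. The pups were in about their first week of life, and the labels give no sex and name the organism as Rattus rattus. The cultures were selected cells, and the study describes no neurons added to them. Fewer cells of a type and less RNA per cell cannot be told apart in such bulk samples.

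Myelin is unusually rich in galactosylceramide and its sulfated form, sulfatide, which oligodendrocytes make in large amounts as they mature. Serine palmitoyltransferase joins serine and palmitoyl-CoA, 3-ketodihydrosphingosine reductase (Kdsr) reduces the product, a ceramide synthase adds a fatty acid, and dihydroceramide desaturase (Degs1) yields ceramide. Cers2 prefers the very long fatty acids that Elovl1 elongates, Fa2h hydroxylates them, Ugt8 adds galactose and Gal3st1 adds sulfate, while Aspa frees acetate for lipid synthesis from N-acetylaspartate.

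Expression was given as log2 values from RMA, so a difference of 1 is a doubling of signal. Array medians lay between 6.43 and 6.51, and arrays of the same group correlated across probe sets at Pearson's r of 0.986 to 0.996. A gene was called changed at a limma adjusted p under 0.05, adjusted by the method of Benjamini and Hochberg over all 31042 probe sets. Each value below is a log2 expression level for 1 probe set or a log2 difference, given with its standard error (SE), and levels of different genes are not compared. The microglia markers averaged 5.17 to 5.36 in the combination and 5.03 to 5.77 in the control arrays at 96 hours. At 48 hours they averaged 5.20 to 5.74 in the combination and 5.13 to 6.60 in the control arrays, with control replicate 2 the highest. Limma called none of the 10 microglia markers in any comparison with control (0 at an unadjusted p under 0.05). The mature oligodendrocyte markers averaged 11.47 to 12.76 in the combination arrays and 9.55 to 9.92 in the control arrays at 96 hours. All 10 measured were called higher with the combination, and the share over all probe sets is given in the next paragraph.

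At 96 hours, 7 of the 8 measured genes were higher in the combination than in control, and none was lower. Over the whole array, 13.6% of probe sets were called higher and 15.7% lower in the same comparison. The replicate number as a block, which pairs cultures of 1 biological replicate, gave the same 7 genes, against 18.5% higher and 22.1% lower. The median log2 change was 1.17 over the 8 genes and 0.02 over all probe sets. The gene with the greatest rise was Aspa, followed by Elovl1, Cers2, Fa2h, Degs1, Ugt8 and Gal3st1. Kdsr, the remaining gene, changed by 0.18 and was not called (limma adjusted p = 0.116).

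**Figure D1:**
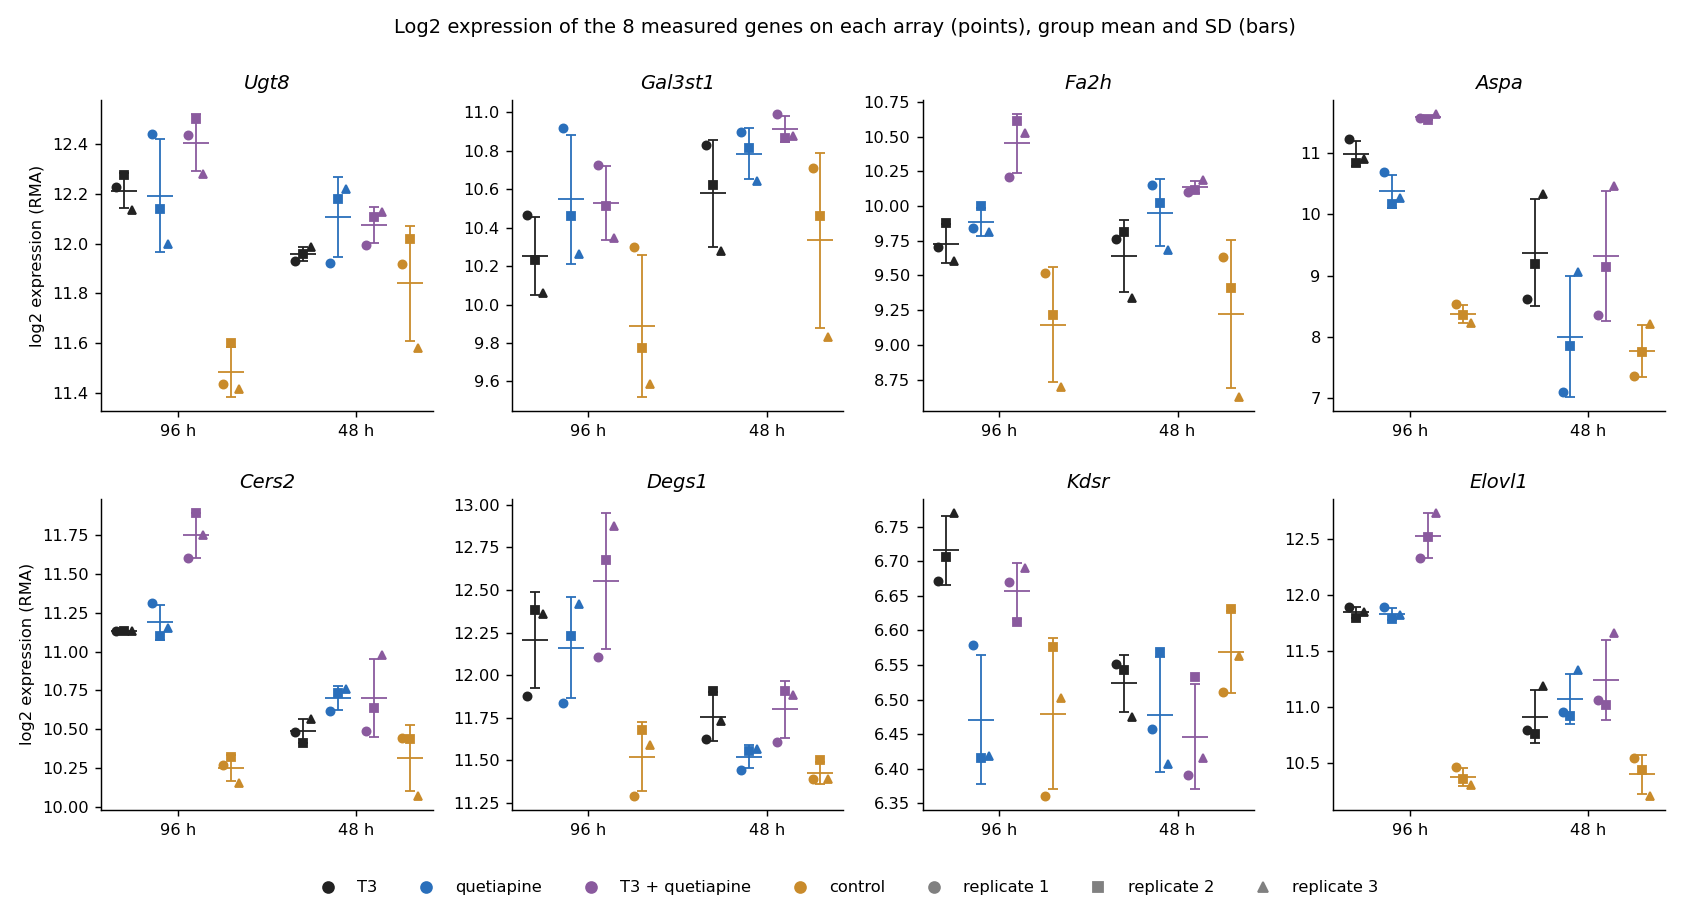
Log2 expression (RMA) on each of the 24 arrays for the 8 measured genes, with 1 point per array (circle, square and triangle for replicates 1, 2 and 3) and the group mean with its SD. At 96 hours the combination arrays lie above the control arrays, for Kdsr only narrowly (lowest 6.61 against highest 6.58). The share of all probe sets that separate in this way is not given here. At 48 hours replicate 3 is the lowest control array for Ugt8, Gal3st1, Fa2h, Cers2 and Elovl1, and the highest for Aspa.

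Of the enzymes that finish galactolipids, Ugt8, the galactosyltransferase that makes galactosylceramide, measured 12.23, 12.27 and 12.14 in the T3 arrays at 96 hours. It measured 12.44, 12.14 and 11.997 in the quetiapine arrays, 12.44, 12.50 and 12.28 in the combination arrays, and 11.44, 11.60 and 11.42 in the control arrays. All 9 treated arrays lay above all 3 control arrays. The rise of Ugt8 over control was 0.73 in T3 cultures, 0.71 in quetiapine cultures and 0.92 in combination cultures (SE 0.11 for each, limma adjusted p = 0.0024, 0.00446 and 0.000161). A second probe set of Ugt8 averaged 2.83 over all arrays, with group means within 0.15 of each other. Its mean was at percentile 0.29 of all probe sets, near the bottom of the array's range.

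Fa2h, the fatty acid 2-hydroxylase, measured 9.70, 9.88 and 9.60 in the T3 arrays, 9.84, 10.0004 and 9.81 in the quetiapine arrays, 10.21, 10.61 and 10.53 in the combination arrays, and 9.52, 9.22 and 8.70 in the control arrays at 96 hours. No treated array fell to the level of a control array, and the combination arrays lay above all the others. The rise was 1.31 with the combination (SE 0.18, limma adjusted p = 0.000357) and 0.74 with quetiapine (adjusted p = 0.0373). With T3 the difference was 0.59 (adjusted p = 0.0611, and 0.0245 with the replicate number as a block). The call with quetiapine was lost in 9 of the 12 fits that left out 1 array, all but those without replicate 1 of T3, the combination or control, with adjusted p up to 0.108. Within replicates 1, 2 and 3 the combination exceeded its control by 0.69, 1.39 and 1.83, so the size of the change differed between replicates.

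Gal3st1, the sulfotransferase that converts galactosylceramide to sulfatide, gave the smallest change of the 7 called genes. It measured 10.46, 10.23 and 10.06 in the T3 arrays, 10.92, 10.46 and 10.26 in the quetiapine arrays, 10.73, 10.51 and 10.34 in the combination arrays, and 10.30, 9.77 and 9.59 in the control arrays at 96 hours. Replicate 1 was the highest of its group in every condition, and only the combination arrays lay wholly above the control arrays. Gal3st1 rose by 0.64 with the combination (SE 0.21, limma adjusted p = 0.0371), a call lost in 5 of the 12 fits without 1 array, those without combination replicate 1 or 2, T3 replicate 2, or control replicate 2 or 3 (adjusted p up to 0.14). The differences of 0.66 with quetiapine and 0.36 with T3 were not called (adjusted p = 0.0932 and 0.312), but passed with the replicate block (block adjusted p = 0.000502 and 0.00879).

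Aspa, the aspartoacylase that splits N-acetylaspartate into aspartate and acetate, had the widest range of group means among the 8 genes, at 3.81. At 96 hours it measured 11.22, 10.84 and 10.90 in the T3 arrays, 10.68, 10.17 and 10.26 in the quetiapine arrays, 11.57, 11.54 and 11.63 in the combination arrays, and 8.53, 8.35 and 8.24 in the control arrays. The 4 groups did not overlap, and their order was the combination, T3, quetiapine and control. Aspa rose by 3.21 with the combination, 2.62 with T3 and 2.00 with quetiapine (SE 0.14 for each, limma adjusted p = 2.01e-07, 1.83e-06 and 2.95e-05). On the linear scale of the RMA signal these were 9.24-fold, 6.13-fold and 4.00-fold of control.

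Elovl1, which elongates saturated very long fatty acyl chains, measured 11.90, 11.80 and 11.85 in the T3 arrays and 11.89, 11.79 and 11.83 in the quetiapine arrays at 96 hours. It measured 12.34, 12.52 and 12.74 in the combination arrays and 10.47, 10.36 and 10.31 in the control arrays. Quetiapine and T3 arrays were nearly superimposed, with a difference of -0.01 and a 95% interval of -0.23 to 0.20. Over control, Elovl1 gained 1.47 in T3 cultures, 1.45 in quetiapine cultures and 2.15 in combination cultures (SE 0.10 for each, limma adjusted p = 8.96e-06, 2.57e-05 and 2.19e-07).

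Cers2, the ceramide synthase that takes very long acyl-CoAs, had the same shape. It measured 11.13 in all 3 T3 arrays, 11.31, 11.10 and 11.15 in the quetiapine arrays, 11.60, 11.89 and 11.75 in the combination arrays, and 10.27, 10.32 and 10.16 in the control arrays at 96 hours. The control arrays were lowest and the combination arrays highest, with quetiapine and T3 arrays overlapping between them. The gain of Cers2 was 0.88 for T3, 0.94 for quetiapine and 1.496 for the combination (SE 0.09 for each, limma adjusted p = 0.000185, 0.000207 and 1.54e-06).

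Degs1, the desaturase that introduces the double bond of ceramide, measured 11.88, 12.38 and 12.36 in the T3 arrays, 11.84, 12.23 and 12.42 in the quetiapine arrays, 12.11, 12.68 and 12.88 in the combination arrays, and 11.29, 11.68 and 11.59 in the control arrays. Replicate 1 was the lowest of its group in each condition, and every treated array exceeded every control array. The rise with the combination was 1.04 (SE 0.22, limma adjusted p = 0.00445). The differences of 0.69 with T3 and 0.64 with quetiapine were not called (adjusted p = 0.067 and 0.121), but passed with the replicate block (block adjusted p = 0.000434 and 0.000836). The other probe sets of Degs1 also rose with the combination, by 0.58 and 0.53 (adjusted p = 0.0108 and 0.000903).

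Kdsr, the reductase that follows serine palmitoyltransferase, stood apart from the rest. It measured 6.67, 6.71 and 6.77 in the T3 arrays, 6.58, 6.42 and 6.42 in the quetiapine arrays, 6.67, 6.61 and 6.69 in the combination arrays, and 6.36, 6.58 and 6.50 in the control arrays at 96 hours. The T3 and combination arrays lay just above the control arrays, and the quetiapine arrays overlapped them. Its group means spanned 0.27 over all 8 groups, percentile 37.6 of all probe sets, whereas the other genes of the list lay between percentiles 86.7 and 99.7. Against control the difference was 0.24 with T3 and -0.01 with quetiapine, neither of which was called (limma adjusted p = 0.0789 and 0.97). The T3 difference passed in the fit over all 24 arrays (adjusted p = 0.0235), and the combination difference of 0.22 passed after each array was centred on its median (adjusted p = 0.0485).

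**Figure D2:**
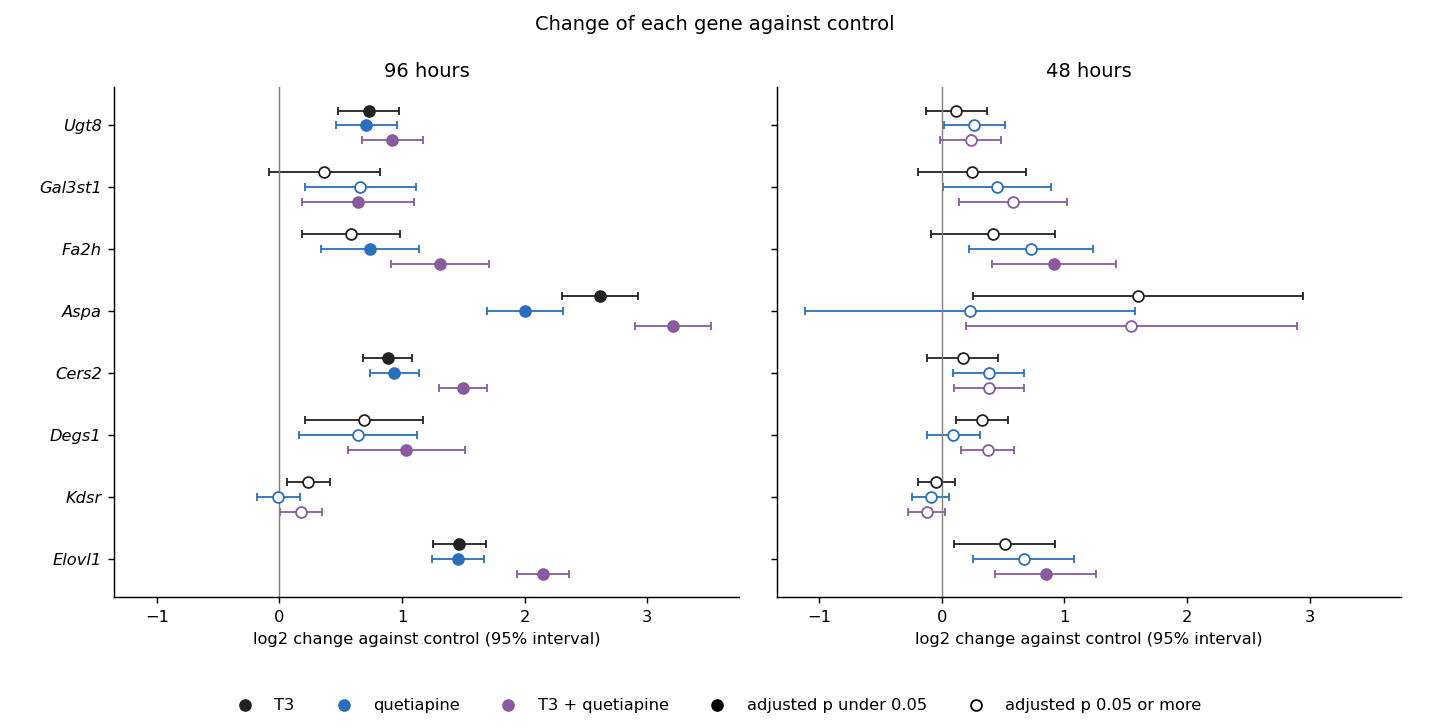
Log2 change against control of the 8 genes with T3, quetiapine or the combination at 96 hours (left) and 48 hours (right), with 95% intervals from limma. Filled points have an adjusted p under 0.05, and the combination has 7 filled points at 96 hours and 2 at 48 hours.

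In counts, T3 alone raised 4 of the 8 genes at 96 hours (Ugt8, Aspa, Cers2 and Elovl1), against 5.64% of all probe sets called higher and 6.07% called lower. Quetiapine alone raised these 4 and Fa2h, against 3.65% higher and 2.24% lower over the array. No gene of the list was lower with either compound. The median log2 change of the 8 genes was 0.71 with T3 and 0.72 with quetiapine. Fitted with the replicate block, T3 raised 7 genes, against 10.3% of probe sets called higher and 14.3% lower, and quetiapine raised 7, against 7.98% higher and 9.26% lower. All 3 comparisons used the same control arrays.

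The direct comparison of quetiapine with T3 at 96 hours gave 1 call, Aspa, which was 0.62 lower with quetiapine (95% interval of the log2 difference -0.93 to -0.31, limma adjusted p = 0.0453). Over all probe sets 1.84% were called lower and 0.789% higher. Within replicates 1, 2 and 3 quetiapine lay below T3 by differences of -0.54, -0.67 and -0.64. The Aspa call was lost in 10 of the 12 fits without 1 array, all but those without replicate 1 of quetiapine or of control, with adjusted p up to 0.166, after each array was centred on its median (adjusted p = 0.0542), and in a fit over all 24 arrays (adjusted p = 0.565), whose spread takes in the wide 48 hour values of this gene. For Ugt8, Cers2 and Degs1, as for Elovl1, the compounds differed by at most 0.06, with 95% intervals of -0.27 to 0.23, -0.14 to 0.25 and -0.53 to 0.43, so that a difference within those bounds was not detectable. Kdsr was newly called in the fit over all 24 arrays, lower with quetiapine than with T3 (-0.24, limma adjusted p = 0.0444). Within replicates 1, 2 and 3 its differences were -0.09, -0.29 and -0.35. The replicate block kept Aspa and added Gal3st1, which was 0.29 higher with quetiapine (block adjusted p = 0.0425), against 6.11% of probe sets called lower and 5.54% higher.

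Adding quetiapine to T3 raised Cers2 by 0.61 and Elovl1 by 0.68 over T3 alone at 96 hours (limma adjusted p = 0.00946 and 0.00869), against 1.18% of probe sets called higher and 0.734% lower. Both calls were lost without T3 replicate 2 (adjusted p = 0.0552 for each), and that of Cers2 without combination replicate 2 (adjusted p = 0.0504). Fa2h and Aspa differed by 0.72 and 0.59 and were not called (adjusted p = 0.0701 and 0.0608), though their combination arrays all lay above their T3 arrays. The replicate block added these and Degs1, 5 genes in all, against 5.44% of probe sets called higher and 6.57% lower. Adding T3 to quetiapine raised Aspa by 1.21, Cers2 by 0.56 and Elovl1 by 0.70 over quetiapine alone (adjusted p = 0.000901, 0.00538 and 0.00248), against 3.62% of probe sets called higher and 3.79% lower. The Aspa call was lost in the fit over all 24 arrays (adjusted p = 0.114), and with the replicate block Fa2h and Degs1 joined the 3, against 8.55% called higher and 11.1% lower. Gal3st1 did not differ detectably between the combination and quetiapine (difference -0.02, 95% interval -0.47 to 0.44).

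The study asked whether the compounds act together, and the folds of the combination at 96 hours were therefore set beside the single folds. This description was added after the values were seen and has no test. If the gains of T3 and of quetiapine over control were summed, Aspa would reach 9.13-fold of control, and the combination gave 9.24-fold. The product of the single folds would be 24.5-fold. Elovl1 gave 4.44-fold, where the sum of gains was 4.51-fold and the product 7.58-fold, and Cers2 gave 2.82-fold, where the sum was 2.76-fold and the product 3.53-fold. In these 3 genes the combination lay near the sum of the linear gains and below the product, although within replicates its ratio to the sum ran between 0.831 and 1.20. Fa2h, at 2.47-fold, lay above its sum of 2.17-fold in all 3 replicates and close to its product of 2.51-fold. Ugt8, Gal3st1 and Degs1, at 1.89-fold, 1.56-fold and 2.05-fold, lay below their sums of 2.29-fold, 1.87-fold and 2.17-fold in all 3 replicates.

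On the log2 scale, the interaction asks how far the combination departs from adding up the log2 changes of T3 and of quetiapine. It was negative for all 8 genes at 96 hours, but only slightly for Fa2h and Kdsr. Their combination folds were 0.987 and 0.966 of the product of the single folds. The share of all probe sets with a negative interaction is not given here. Limma called none of the 8 (4 lower at an unadjusted p under 0.05), against 0.00322% of probe sets called higher and 0.029% lower. Aspa, at -1.41 (SE 0.20), was closest (limma adjusted p = 0.0529). It passed with the replicate block (block adjusted p = 0.00307, against 0.029% of probe sets called higher and 0.213% lower) and when dim probe sets were left out (adjusted p = 0.0453). Elovl1 had an interaction of -0.77 (adjusted p = 0.125).

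**Figure D3:**
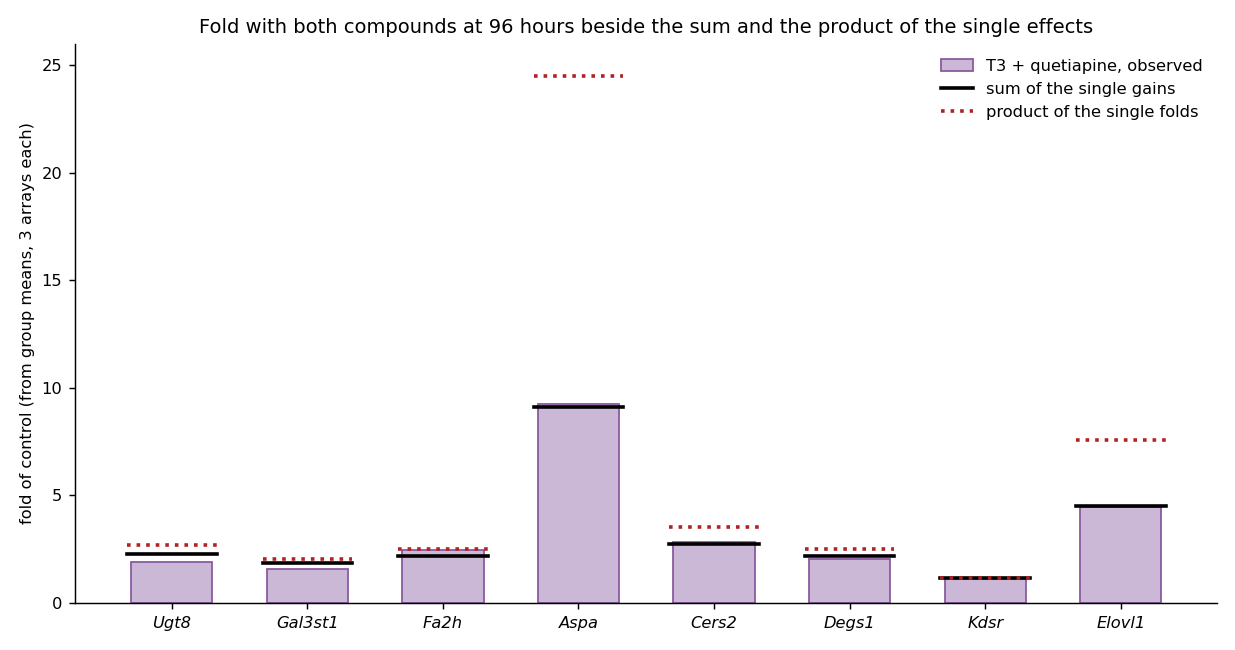
Fold of control with the combination at 96 hours (bars, from means of 3 arrays per group), the fold expected if the gains of the single compounds are summed (black lines) and the product of the single folds (dotted red lines), for each of the 8 genes. For Aspa, Elovl1 and Cers2 the bars end near the black lines, and Fa2h ends between its black and dotted lines.

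At 48 hours the changes were smaller and fewer were called. The combination raised 2 of the 8 genes, Fa2h by 0.92 (SE 0.23) and Elovl1 by 0.85 (SE 0.19; limma adjusted p = 0.0443 and 0.0268), against 2.62% of all probe sets called higher and 2.87% lower. Elovl1 measured 11.06, 11.02 and 11.66 in the combination arrays and 10.55, 10.45 and 10.21 in the control arrays. Fa2h measured 10.10, 10.12 and 10.19 in the combination arrays and 9.63, 9.41 and 8.62 in the control arrays. Neither gene overlapped with its control, and the spread of Fa2h came from control replicate 3. Without that array Fa2h differed by 0.62 and Elovl1 by 0.75, and neither was called (adjusted p = 0.0986 and 0.11). The Fa2h call was lost in 9 of the 12 fits without 1 array, all but those without control replicate 1, T3 replicate 3 or quetiapine replicate 3 (adjusted p up to 0.135), and that of Elovl1 also without control replicate 2 or combination replicate 3 (adjusted p = 0.0656 and 0.0816).

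T3 alone and quetiapine alone gave no call by limma in the list at 48 hours (3 and 5 genes higher at an unadjusted p under 0.05), against 0.792% higher and 0.254% lower over the array with T3, and 0.087% and 0.029% with quetiapine. Yet Aspa showed a pattern that depended on the replicate. It measured 8.62, 9.18 and 10.32 in the T3 arrays, 7.10, 7.86 and 9.05 in the quetiapine arrays, 8.36, 9.13 and 10.46 in the combination arrays, and 7.36, 7.75 and 8.21 in the control arrays. In all 4 conditions replicate 3 was highest and replicate 1 lowest. Within replicates 1, 2 and 3 the gain over control was 1.26, 1.43 and 2.12 with T3, and -0.26, 0.11 and 0.85 with quetiapine. In the fit without the replicate Aspa was not called with T3 (1.60, limma adjusted p = 0.302), and with the replicate block it was (block adjusted p = 0.000666).

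With that block, the 48 hour counts were 2 genes with T3 (Aspa and Degs1), 2 with quetiapine (Fa2h and Elovl1) and 5 with the combination (Fa2h, Elovl1, Gal3st1, Aspa and Degs1), all higher. The background was 4.57% of probe sets called higher and 5.51% lower for T3, 1.7% and 1.88% for quetiapine, and 9.63% and 12.1% for the combination. Quetiapine against T3 gave no limma call without the block (2 genes lower at an unadjusted p under 0.05), against 1.1% lower and 0.528% higher over the array. With it, Aspa was 1.37 lower with quetiapine at 48 hours (95% interval of the log2 difference without the block -2.72 to -0.02, block adjusted p = 0.0012), against 5.32% lower and 4.45% higher. Limma gave no call in the list for the combination over T3 alone at 48 hours (0 genes at an unadjusted p under 0.05), where 0% of all probe sets passed upward and 0.0193% downward. Blocking by replicate also gave no gene there, against 0.409% and 0.635%. Over quetiapine alone there was no call either (1 gene higher at an unadjusted p under 0.05), against 0.718% higher and 0.229% lower. In that comparison Aspa and Degs1 were called higher with the block (1.32 and 0.28, block adjusted p = 0.00207 and 0.0279), against 3.73% of probe sets called higher and 4.17% lower. No gene had an interaction called by limma at 48 hours (0 at an unadjusted p under 0.05), where 0% of probe sets were called in either direction.

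The next comparisons set 96 hours against 48 hours within each condition. In control cultures limma called no gene of the list (1 lower at an unadjusted p under 0.05), against 0.0129% of probe sets higher and 0.00966% lower. Ugt8 in control cultures averaged 11.48 at 96 hours and 11.84 at 48 hours, a difference of -0.36 that was not called (limma adjusted p = 0.402). The mature oligodendrocyte markers averaged 9.55 to 9.92 in control arrays at 96 hours and 8.90 to 9.004 in control arrays at 48 hours, without overlap. These averages hide a split list. Control means of Mobp (9.97 against 4.68), Mog (7.49 against 6.13), Opalin, Mal and Ermn were higher at 96 hours. Those of Mbp (13.95 against 13.97), Mag, Cnp, Cldn11 and Myrf (11.17 against 11.31) were slightly lower. In the combination 6 genes rose: Aspa by 2.26, Elovl1 by 1.28, Cers2 by 1.04, Degs1 by 0.76, Ugt8 by 0.33 and Kdsr by 0.21 (adjusted p = 0.00176, 1.4e-05, 4.6e-06, 0.00423, 0.046 and 0.0324), against 9.66% of probe sets called higher and 12.5% lower. The call of Ugt8 was lost in 16 of 24 fits without 1 array (adjusted p up to 0.174), among them those without any 1 combination array except replicate 3 at 96 hours, and that of Kdsr without replicate 1 or 3 of the combination at either time, or replicate 2 at 96 hours.

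With T3 alone Aspa, Cers2 and Elovl1 rose with time by 1.61, 0.64 and 0.93 (limma adjusted p = 0.0477, 0.00278 and 0.00167), against 2.72% of probe sets called higher and 3.6% lower. With quetiapine alone the same genes rose by 2.37, 0.49 and 0.76 (adjusted p = 0.00876, 0.0253 and 0.00966), against 1.97% higher and 0.68% lower. The Aspa call in T3 cultures was lost in 18 of 24 fits without 1 array (adjusted p up to 0.239). It was kept without combination replicate 1 at 96 hours, and without T3 replicate 3, quetiapine replicate 1 or 3 or combination replicate 1 or 3 at 48 hours. All 3 quetiapine calls were lost without 48 hour quetiapine replicate 1 or 2, with adjusted p between 0.0509 and 0.12, and that of Cers2 also without any 1 of the 96 hour quetiapine arrays (adjusted p up to 0.0958).

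For Gal3st1, the highest group mean was 10.91, in the combination at 48 hours, and each condition had a lower mean at 96 hours than at 48 hours. The differences were -0.33 with T3, -0.24 with quetiapine, -0.38 with the combination and -0.45 in control, and none was called without the block (limma adjusted p = 0.411, 0.644, 0.232 and 0.597). Under the replicate block it was lower at 96 hours with T3, the combination and in control (block adjusted p = 0.0469, 0.0118 and 0.0327), against 12.1%, 19.2% and 0.86% of probe sets called lower. The block also added Degs1 to the genes that rose with time in T3 and in quetiapine cultures (block adjusted p = 0.0065 and 0.000861), against 7.03% and 5.11% called higher.

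The change against control was itself set against time. In the combination it was larger at 96 than at 48 hours for 3 genes, against 4.15% of probe sets called higher and 2.27% lower: Ugt8, by 0.68, Cers2, by 1.11, and Elovl1, by 1.30 (limma adjusted p = 0.0157, 0.000496 and 0.00159). The Ugt8 call was lost without control replicate 2 at 48 hours or combination replicate 2 at 96 hours (adjusted p = 0.0511 and 0.052). Aspa, Degs1 and Kdsr joined them with the replicate block (block adjusted p = 0.0481, 0.00576 and 0.0349), against 8.07% called higher and 9.46% lower. Limma called no such difference with T3 or with quetiapine (4 and 5 genes higher at an unadjusted p under 0.05), against 0.0483% and 0.106% of probe sets called higher and 0% lower in each. Cers2 and Elovl1 were called for T3 with the replicate block (block adjusted p = 0.0452 and 0.0281), against 0.812% called higher and 0.142% lower.

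The 8 group means share no arrays with each other but come from the same 3 biological replicates. Across them Cers2 and Elovl1 ran most closely together (Pearson's r = 0.989), followed by Aspa and Degs1 (r = 0.985). Gal3st1 was nearly unrelated to Aspa (r = 0.06) and Degs1 (r = 0.11). Ordered by mean, the combination at 96 hours was the highest of the 8 groups for Ugt8, Fa2h, Aspa, Cers2, Degs1 and Elovl1. It did not overlap with the next group for these genes, except Degs1. Of the 7 steps between neighbouring groups, the arrays overlapped in 4 for Cers2 and Elovl1, 5 for Ugt8 and Aspa, 6 for Fa2h and Degs1, and 7 for Gal3st1 and Kdsr. The shares of all probe sets that separate or overlap in this way are not given here. These orders therefore describe the listed genes only and do not set them apart from the array.

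Genes whose group means most resembled the mean profile of Ugt8, Gal3st1, Fa2h and Aspa were sought among 2119 genes whose group means spanned at least 1 on the log2 scale. The 8 highest were Tns1, Paip2b, Rab4b, Rhog, Rras2, Lpar1, Gadd45a and Syngr2, with Pearson's r between 0.981 and 0.956 over the 8 groups. The 4 lowest were Drc3, Dhtkd1, Chrdl1 and Col14a1, with r between -0.997 and -0.983. For Ugt8 alone, among 2122 genes, the 8 highest were Tlcd3a, Paip2b, Lpar1, Sephs2, Rhog, Nacad, Agpat4 and Zdhhc14 (r of 0.965 to 0.941), and the 4 lowest were Slc27a3, Iqub, Oat and St6galnac5 (r of -0.98 to -0.974). Lpar1, a receptor for lysophosphatidic acid, Paip2b and Rhog were in both upper sets. These are descriptions over 8 means with no test.

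Other enzymes of these pathways were compared between the combination and control at 96 hours, where 13.6% of all probe sets were called higher and 15.7% lower. Among 8 measured genes of serine palmitoyltransferase and ceramide synthesis outside the list, 2 were higher and 2 lower, few genes to set against those shares. Cers6, the ceramide synthase that prefers palmitoyl-CoA, measured 7.34, 6.49 and 6.48 in the combination arrays and 8.42, 8.19 and 8.86 in the control arrays, a fall of 1.72 on the log2 scale (SE 0.28, limma adjusted p = 0.000923). Cers6 thus fell where Cers2 rose, while Cers5, another long-chain synthase, rose by 0.32 (adjusted p = 0.0102) and Cers4, picked out after its values were seen, differed by 0.02 (adjusted p = 0.948). The Orm proteins, which restrain serine palmitoyltransferase, were split: Ormdl2 rose by 0.82 and Ormdl3 fell by 0.97 (adjusted p = 6.17e-05 and 0.00171). With the single compounds Cers6 was not called (adjusted p = 0.428 with T3, and 0.148 with quetiapine or 0.0279 with the replicate block).

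Fatty acid elongation had 13 measured genes besides Elovl1, of which 6 were higher and 2 lower with the combination at 96 hours, against the same 13.6% and 15.7% over the array. Elovl6, which extends palmitate to stearate, measured 11.15, 11.29 and 10.97 in the combination arrays and 9.97, 9.65 and 9.41 in the control arrays, a rise of 1.46 (limma adjusted p = 0.000307). Elovl2, which elongates long polyunsaturated fatty acids, measured 7.17, 7.64 and 8.34 in the combination arrays and 9.20, 9.65 and 9.86 in the control arrays, a fall of 1.85 on the log2 scale (adjusted p = 0.00353). Hacd1, a dehydratase of the elongation cycle, and Acsl3, an acyl-CoA synthetase, rose by 1.00 and 0.94 (adjusted p = 0.000505 and 0.00025). The elongases Elovl1, Elovl6 and Elovl2 thus went in opposite directions within one treatment.

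**Figure D4:**
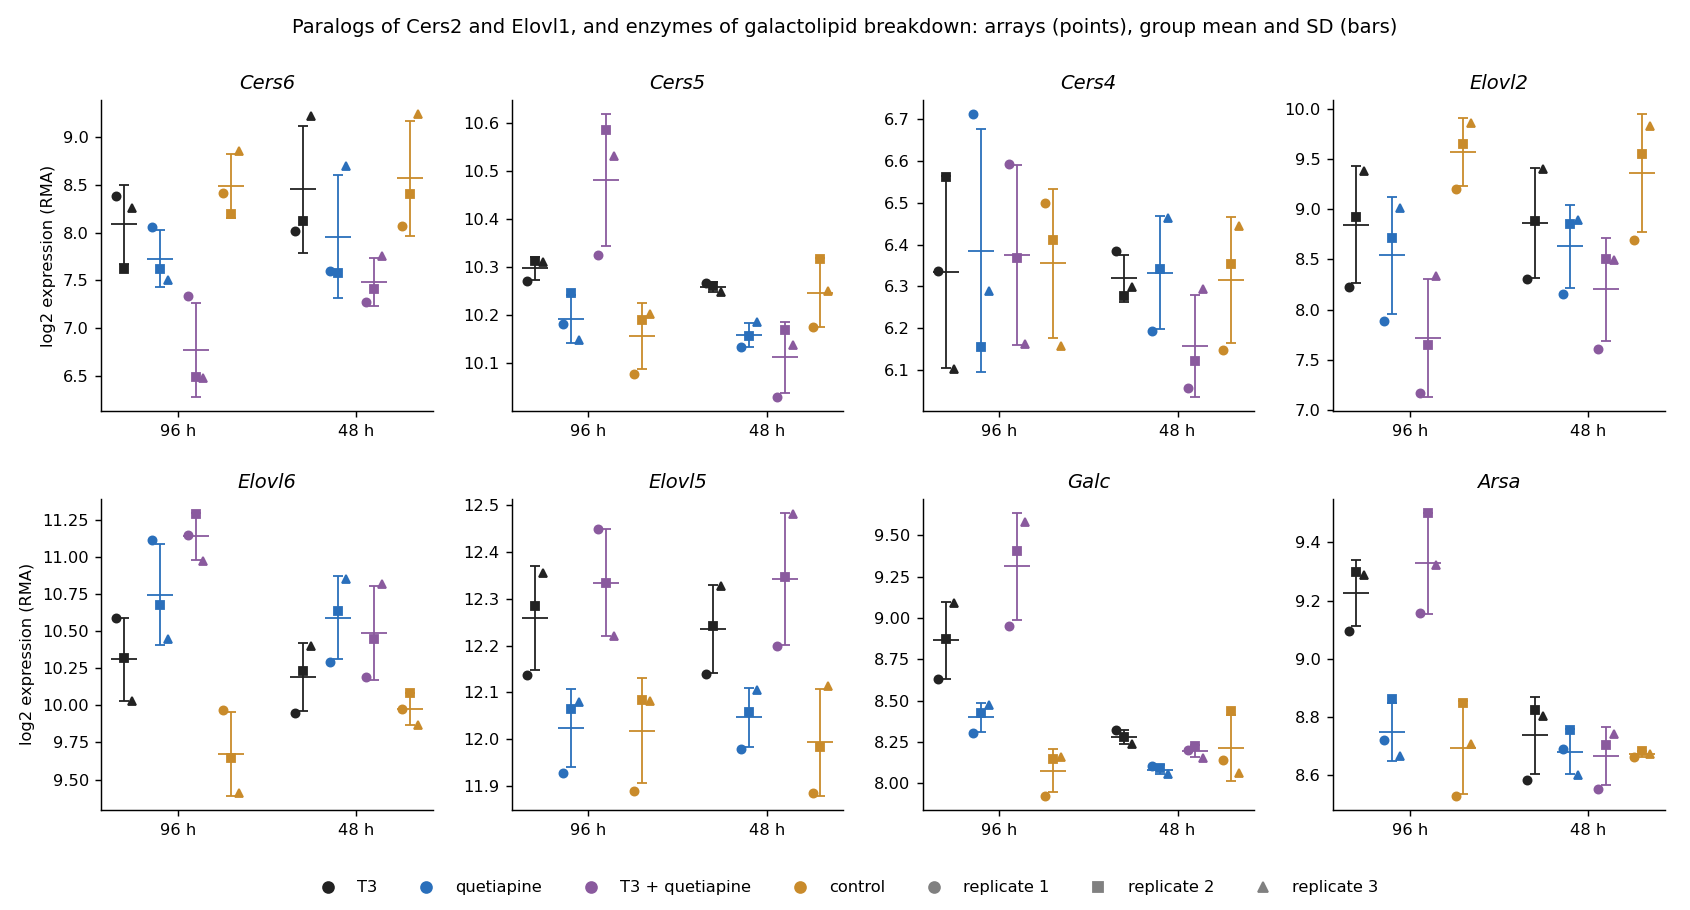
Log2 expression (RMA) on each array, with group mean and SD, for 3 ceramide synthases (Cers6, Cers5, Cers4), 3 elongases (Elovl2, Elovl6, Elovl5) and 2 lysosomal enzymes of galactolipid breakdown (Galc, Arsa). At 96 hours Cers6 and Elovl2 are lowest with the combination, and Galc and Arsa are high in the T3 and combination arrays; Cers4, Elovl5 and Arsa were picked for the plot after their values were seen.

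Other routes from ceramide had 14 measured genes, of which 2 were higher and 4 lower with the combination at 96 hours, against 13.6% and 15.7% over the array. The share higher was thus near the background. The replicate block gave 4 higher and 6 lower, against 18.5% and 22.1%. Cerk, the kinase that makes ceramide 1-phosphate, followed quetiapine and not T3. It measured 9.98, 10.05 and 10.28 in the T3 arrays, 8.98, 9.39 and 9.49 in the quetiapine arrays, 8.91, 8.96 and 9.31 in the combination arrays, and 10.17, 10.20 and 10.33 in the control arrays. The change was -0.94 with quetiapine, -1.17 with the combination and -0.13 with T3 (limma adjusted p = 0.00402, 0.000187 and 0.672), and the test of quetiapine against T3 gave -0.82 (adjusted p = 0.0157). At 48 hours the same test gave -0.99 (adjusted p = 0.000318). B4galt6, which makes lactosylceramide, fell by 0.71, Samd8, a ceramide phosphoethanolamine synthase, rose by 0.76, and Plekha8, a glycolipid transfer protein, fell by 0.49 (adjusted p = 0.00215, 0.0105 and 0.00607). Ugcg, the glucosyltransferase that competes with Ugt8 for ceramide, differed by 0.17 and was not called (adjusted p = 0.417). Ugcg was singled out after its values were seen.

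Sphingolipid breakdown had 19 measured genes, of which 8 were higher and 2 lower with the combination at 96 hours, against 13.6% and 15.7% over the array. Galc, the lysosomal galactosylceramidase, measured 8.63, 8.87 and 9.09 in the T3 arrays, 8.30, 8.42 and 8.47 in the quetiapine arrays, 8.95, 9.41 and 9.58 in the combination arrays, and 7.92, 8.15 and 8.16 in the control arrays. It rose by 1.23 with the combination and 0.79 with T3 (limma adjusted p = 0.000221 and 0.00989), and differed by 0.32 with quetiapine (adjusted p = 0.292). The test of quetiapine against T3 gave -0.47, which was not called (adjusted p = 0.17, and 0.0085 with the replicate block). Acer3, Sphk1 and Asah1, which act on ceramide and sphingosine, rose by 1.20, 0.98 and 0.80 with the combination (adjusted p = 0.0014, 0.00614 and 0.000314). Arsa, the arylsulfatase that removes the sulfate that Gal3st1 adds, was picked out after its values were seen. It rose by 0.53 with T3 and 0.63 with the combination (adjusted p = 0.0122 and 0.00162), with a difference of 0.05 with quetiapine. The combination exceeded quetiapine alone by 0.91 for Galc and 0.58 for Arsa (adjusted p = 0.00788 and 0.0126).

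All 8 genes of the N-acetylaspartate and acetate list were measured, and 2 were higher and 4 lower with the combination at 96 hours, against 13.6% and 15.7% over the array. Acss2, which turns free acetate into acetyl-CoA in the cytosol and nucleus, measured 11.12, 11.16 and 11.24 in the T3 arrays, 12.47, 11.77 and 12.11 in the quetiapine arrays, 12.72, 12.55 and 12.41 in the combination arrays, and 10.46, 10.27 and 10.57 in the control arrays. It rose by 2.13 with the combination (SE 0.16, limma adjusted p = 5.7e-06), and quetiapine arrays exceeded T3 arrays by 0.95 (adjusted p = 0.0097). Aspa, which frees acetate, was by contrast lower with quetiapine than with T3, as given above. Acss1, the mitochondrial enzyme, fell by 1.60 on the log2 scale, Rimklb, which joins N-acetylaspartate and glutamate, fell by 1.35 and Slc13a3, a carrier for N-acetylaspartate, fell by 0.86 with the combination (adjusted p = 0.000342, 6.41e-06 and 0.0246). Nat8l, the enzyme that makes N-acetylaspartate, also fell by 0.82 (adjusted p = 0.00539) and was picked out after its values were seen.

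Levels of cell type markers also differed between the groups at 96 hours. The mature oligodendrocyte markers averaged 11.02 to 12.31 in the T3 arrays, 10.77 to 11.85 in the quetiapine arrays, 11.47 to 12.76 in the combination arrays and 9.55 to 9.92 in the control arrays. Of the 10 measured, T3 cultures had 8 called higher, quetiapine cultures 7 and combination cultures 10, while the replicate block gave all 10 in each. Over the array, 5.64% of probe sets were called higher with T3 and 3.65% with quetiapine (10.3% and 7.98% under the block). The shares for the combination are given above. The 4 measured precursor markers averaged 10.24 to 10.87 in the T3 arrays, 10.44 to 11.08 in the quetiapine arrays, 9.97 to 10.63 in the combination arrays and 10.86 to 11.46 in the control arrays. Of these, T3 cultures had 1 called lower (4 under the block), quetiapine cultures 1 (2 under the block) and combination cultures 2 (4 under the block). Over the array, 6.07% of probe sets were called lower with T3 (14.3% under the block) and 2.24% with quetiapine.

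The 7 astrocyte markers averaged 10.59 to 11.27 in the T3 arrays, 10.07 to 10.91 in the quetiapine arrays, 10.04 to 10.60 in the combination arrays and 10.87 to 11.34 in the control arrays at 96 hours. Astrocyte markers called lower numbered 1 in T3 cultures (4 under the block), 1 in quetiapine cultures (5 under the block) and 4 in combination cultures (6 under the block), while 1 was called higher with T3 and with the combination in either fit. Among the 6 lower with the combination under the block was Gfap, the main astrocyte filament protein, at -0.45 (limma adjusted p = 0.218, and 0.00066 with the block). Of 8 neuron markers, T3 cultures had 2 called lower (3 under the block), quetiapine cultures 1 (3 under the block) and combination cultures 2 (4 under the block), and 1 was called higher with the combination. Of 7 vascular and fibroblast markers 1 was called each way with the combination, and 1 was called lower with T3 and with quetiapine under the block alone. Of 2 measured Schwann cell markers limma called none (0 at an unadjusted p under 0.05). Counts of 1 or 2 in such short lists are few to set against the shares of all probe sets given above. The part of these cell types in the changes above was not tested.

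The 3′ to 5′ log2 difference of the beta-actin control probes, a sign of RNA quality, was 0.67 to 0.77 in the T3 arrays, 0.60 to 0.72 in the quetiapine arrays, 0.70 to 0.77 in the combination arrays and 0.64 to 0.67 in the control arrays at 96 hours. By beta-actin the T3 and combination arrays lay wholly above the control arrays, and the quetiapine arrays overlapped them. The GAPDH control probes did not share this pattern. Their difference was -0.076 to -0.027 in the T3 arrays, -0.113 to -0.073 in the quetiapine arrays and -0.132 to -0.092 in the combination arrays. It was -0.107 to -0.057 in the control arrays, which each treated group overlapped. The part of RNA quality was not tested either.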

How the data were processed

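RNA from 24 rat OPC cultures was measured on 1-colour Affymetrix arrays, 3 for each of 8 groups. The authors deposited log2 values made by RMA, per the labels, with its version not given in the sources used here. They were used as they stand, and no column of another sample was met (0 columns not used). Of 31099 probe sets, 57 controls were left out, which left 31042, of which 20826 carried 1 symbol, 436 several and 9780 none. Rows of several symbols or none entered the tests and adjustment but were not named. No genome or sequence of these genes was used here.

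The limma package (3.58.1, R 4.3.3) was used to fit linear models to the 12 arrays of each time, with 4 group means and no replicate term, and over all 24 arrays for contrasts between times. Moderated p-values were adjusted by Benjamini and Hochberg over 31042 probe sets, and a call needed an adjusted p under 0.05. The procedure was tested on simulated data with independent noise and no replicate effect. That simulation does not show how the fit behaves where replicates pair the arrays. The number of arrays limits the precision.

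The design states that each biological replicate supplied a sample of every condition, so replicate numbers pair the arrays. As a check, deviations from group means correlated between arrays of the same number at 0.309 to 0.690 at 96 hours and 0.430 to 0.777 at 48 hours. Between arrays of different numbers they correlated at -0.583 to 0.243 at 96 hours and -0.681 to -0.00478 at 48 hours. Deviations from a group mean cancel within the group, so the values for different numbers largely follow from the others and are no separate check. Blocked values are given where they change a call of a member, and beside counts of other lists where they move a count by over 1.5 times.

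Alternatives were the replicate block, centring arrays on their medians, leaving out dim probe sets, 1 fit over 24 arrays, a fold over 1.5 as well, the probe set with the widest range, and leaving out each array. The members, lists and tests were chosen with earlier results of these data known. Named genes were all members, up to 4 called genes of each other list with the greatest change for the combination against control at 96 hours (or the 2 greatest where none was called), and the 8 highest and 4 lowest in likeness to the members' profile. Others are said to be picked after their values were seen.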

Additional observations from a re-analysis of the deposited data

Results flagged for a closer look

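The change against control with the combination was larger at 96 hours than at 48 hours for 3 genes, by limma's test of the difference between the 2 times. The difference of the log2 changes was 0.68 for Ugt8, 1.11 for Cers2 and 1.30 for Elovl1. For Ugt8 the control mean was lower at 96 hours (11.48) than at 48 hours (11.84), and the combination mean was higher (12.40 against 12.08). The Ugt8 call was lost in some fits without 1 array, as given above.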

How the results depend on the processing

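No single-gene value turned its direction where called. With the replicate block 136 of 168 gene values kept their call and 32 were newly called. Centring left 164, with 1 lost and 3 gained, and 3 uncalled values changed sign. Leaving out dim probe sets left 161, with 7 gained, the fit over 24 arrays left 106 of 112, with 2 lost and 4 gained, the 1.5-fold limit left 164, with 4 lost, and the widest probe set left all 168. Of 2688 values without 1 array 2574 were unaltered, 89 lost and 25 gained their call, and 74 uncalled values changed sign. Centring shifted the median of all probe sets by at most 0.05. With 3 arrays per group, the number of arrays limits what can be called.

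With the replicate block, the number of members called became 2 for T3, 2 for quetiapine and 5 for the combination against control at 48 hours, 1 for quetiapine against T3 and 2 for the combination against quetiapine. At 96 hours it became 7 for T3 against control, 2 for quetiapine against T3, 5 for the combination against T3, 5 for the combination against quetiapine and 1 for the interaction. Between 96 and 48 hours it became 1 in control and 5 in T3 cultures, and for the change against control at 96 hours less that at 48 hours, 2 with T3 and 6 with the combination. The block changed the other comparisons by less than 1.5 times. It also raised calls over the whole array, and the shares of all probe sets are given above with each comparison. For the combination against control at 48 hours, 9.63% were called higher with the block and 2.62% without it. For T3 these shares were 4.57% and 0.792%. After centring, quetiapine against T3 at 96 hours gave 0 members, and without dim probe sets the interaction at 96 hours gave 1. Without 1 array, the count ran between 0 and 3 for the combination against control at 48 hours, 0 and 1 for quetiapine against T3 and 0 and 3 for the combination against T3 at 96 hours, 0 and 4 for 96 against 48 hours with quetiapine, and 0 and 1 for the change against control at 96 less 48 hours with T3. Where values are shown to differ with a setting, the cause was not tested.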
